A study of Homo sapiens with 2 samples.

Results

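The region described here is the 300 kb of chromosome 5 (band 5q31) that surrounds CXXC5, a gene on the plus strand at chr5:139028301-139062679 in the hg19 build. Its members are the rows of the deposited peak list of oestrogen receptor α (ERα) whose centre lies in chr5:138900000-139200000, and there are 10 of them among the 12688 peaks of the list. They are numbered 1 to 10 below in their order along the chromosome. The members were chosen by the positions of listed peaks, in a window picked for holding many of them, so their number and positions are a description and carry no test.

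The peaks come from T47D, an established human breast cancer cell line that expresses ERα. The study sequenced 1 library of DNA recovered with the ERα antibody H-20 and 1 library of input DNA that saw no antibody. Both came from cells grown in medium with 10% FBS (fetal bovine serum), kept for 48 h in medium depleted of steroids and then given 17β-estradiol, the main natural ligand of ERα, at 10 nM for 45 min. No library of cells without estradiol was analysed here, so the values describe occupancy after hormone and not a response to it. Neither library has a replicate, so no peak carries an error and no test between samples could be run, and the read depth is unknown from the file. T47D is a single cell line, and its copy number at 5q31 was not examined.

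CXXC5 encodes a zinc finger protein that belongs to a family whose CXXC domain binds DNA at unmethylated CpG. It is also known to bind Dishevelled in the cytoplasm and to dampen Wnt signalling, and it has been described as an oestrogen-responsive gene in breast cancer cells. ERα is a nuclear receptor that, once bound by estradiol, contacts DNA at oestrogen response elements, and in breast cancer cells it does so mostly at enhancers away from gene starts, often beside the pioneer factor FOXA1. In the RefSeq gene order the protein-coding neighbours of CXXC5 are UBE2D2, which encodes a ubiquitin-conjugating enzyme, before it and PSD2 after it.

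No sequence of the peaks themselves was used here, because no genome of the hg19 build was at hand. RefSeq (GRCh38.p14) lists 7 start sites for CXXC5, which spread over 28.1 kb within that build, and gives a promoter sequence for each. Those positions belong to another build, and which of the 7 matches the CXXC5 start given above is not known here. They were therefore not set directly against the peak positions. The 7 promoter windows of 300 bases (250 before the start and 50 after it) were searched on both strands for 5 motifs. The first was the full palindromic oestrogen response element, which is GGTCA followed by 3 bases of any kind and by the reverse complement of GGTCA. The second was the arm GGTCA on its own, which every full element contains. Another was TGANTCA, bound by AP-1. Forkhead factors such as FOXA1 were represented by TGTTTAC. The last was AGATAA, bound by GATA factors. The search matched 3 of the 7 windows, and the 250 bases before the start are shown for those 3 because they hold the matches. Taken singly, GGTCA occurred in 37.4% of the 35116 RefSeq promoter windows and AGATAA in 10.3%. The share of those windows with any of the 5 motifs was not counted, so the 3 of 7 cannot be called many or few. Capitals mark the match as it reads in the printed strand, so AGATAA appears as TTATCT at start 1 and GGTCA as TGACC at start 7. All 3 sequences are printed on the plus strand of chromosome 5, at chr5:139647049-139647298, chr5:139647654-139647903 and chr5:139675193-139675442 of GRCh38.p14.

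CXXC5 start 1: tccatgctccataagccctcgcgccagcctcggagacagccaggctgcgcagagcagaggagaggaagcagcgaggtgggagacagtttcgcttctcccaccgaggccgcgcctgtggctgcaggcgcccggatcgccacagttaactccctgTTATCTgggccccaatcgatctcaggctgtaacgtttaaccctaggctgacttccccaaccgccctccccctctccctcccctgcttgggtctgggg

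CXXC5 start 2: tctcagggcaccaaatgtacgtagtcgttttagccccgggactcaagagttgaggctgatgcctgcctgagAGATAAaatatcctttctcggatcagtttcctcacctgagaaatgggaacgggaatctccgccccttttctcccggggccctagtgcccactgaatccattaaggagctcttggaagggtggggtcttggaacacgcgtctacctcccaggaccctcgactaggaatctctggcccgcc

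CXXC5 start 7: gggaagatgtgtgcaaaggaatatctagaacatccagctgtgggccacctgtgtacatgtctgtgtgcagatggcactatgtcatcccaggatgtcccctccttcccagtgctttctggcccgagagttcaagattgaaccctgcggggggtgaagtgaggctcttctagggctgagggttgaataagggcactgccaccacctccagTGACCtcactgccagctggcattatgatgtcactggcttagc

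The full element had 0 matches in the 7 CXXC5 windows, also with 1 mismatch allowed, and it occurred in 0.057% of the 35116 RefSeq promoter windows of the same length (0.817% with at most 1 mismatch). The arm GGTCA had its match at start 7, where it reads TGACC on the plus strand and begins 42 bases before the start, whereas 37.4% of all promoter windows held it. AGATAA matched at start 1, as TTATCT, and at start 2, and 10.3% of all windows held it. The AP-1 and forkhead motifs matched 0 of the 7 windows and 7.71% and 3.42% of all windows. Starts 3 and 4 were the richest in CpG, with 37 and 39 CpG dinucleotides in 300 bases against a median of 14 over all promoter windows, while starts 6 and 7 held 2 each. A match is only a run of letters, and no match says only that these letters are not in these windows.

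ERα occupied both sides of the CXXC5 start without a listed peak at the start itself. Of the 10 peaks, 4 had their centre upstream of the gene, 0 within 1 kb of its start, 4 inside the gene and 2 downstream of its end. The nearest peak on the upstream side ended 3955 bp before the start, and the nearest inside the gene began 2353 bp after it. These edges left 6307 bp over the start with no listed peak. This holds for the start used in the rule that defines the window, and the other RefSeq starts could not be placed in hg19. Exons and introns were not assigned for the same reason.

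**Figure D1:**
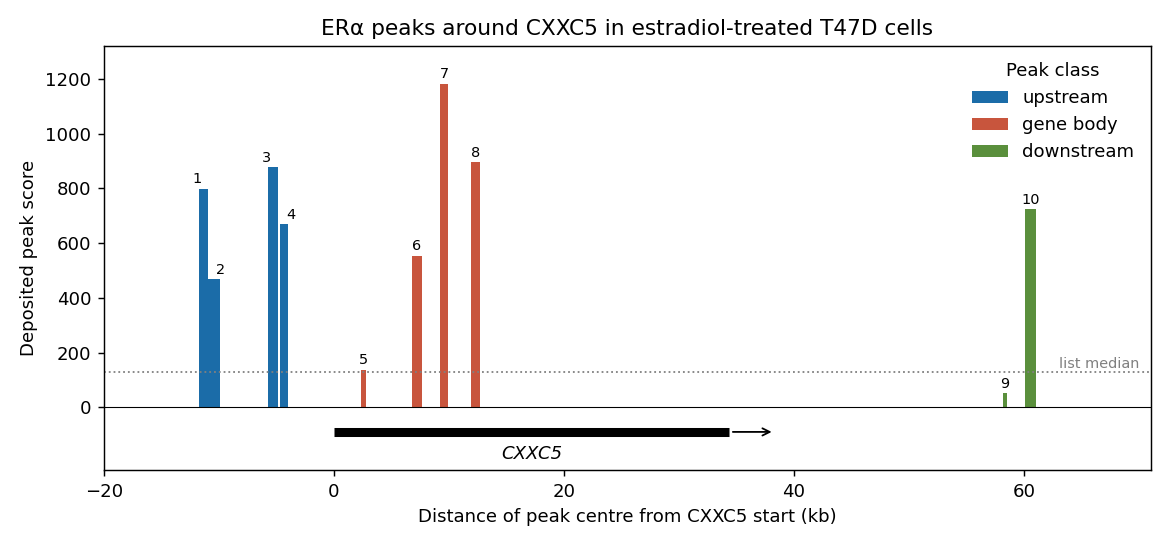
Deposited score (vertical axis) of each of the 10 ERα peaks against the distance of its centre from the CXXC5 start in kb (horizontal axis), with bar widths equal to peak widths and the black bar marking the gene and its direction. Peaks 1 to 4 lie upstream, 5 to 8 in the gene with centres up to 12.35 kb from its start, and 9 and 10 past its end.

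The upstream peaks formed 2 closely set couples. Peak 1 ran from 139016612 to 139017356 with a score of 798.74, its centre 11.32 kb before the start. Peak 2 followed after 19 bp, from 139017376 to 139018391, and scored 468.29. With 1016 bp it was the widest of the 10. The second couple lay 4167 bp further on. Peak 3, from 139022559 to 139023474, scored 876.63 and had its centre 5.28 kb before the start. Peak 4, from 139023593 to 139024346, began 118 bp after it and scored 668.60.

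All 4 upstream peaks were in the highest-scoring 25% of the list, which begins at a score of 347. Edges as close as those of peaks 1 and 2 were uncommon: 45 of the 12624 neighbouring peak couples on chromosomes 1 to 22 and X (0.356%) lay 19 bp or less apart. A gap of 118 bp or less was found for 236 of them (1.87%). The list does not show whether each couple is 1 enriched region divided by the peak caller or a couple of separate sites. Merging peaks less than 500 bp apart turned the 4 upstream peaks into 2 and left those in the gene at 4.

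The peaks inside CXXC5 were more widely spaced and included the highest score of the region. Peak 5, from 139030654 to 139031100, scored 137.01 and was the nearest to the gene start, with its centre 2.58 kb into the gene. Peak 6, from 139035141 to 139035942, scored 554.16 at 7.24 kb. Peak 7, from 139037514 to 139038276, scored 1182.39 at 9.59 kb. Peak 8, from 139040250 to 139041056, scored 895.19 at 12.35 kb.

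Peak 7 was thus the highest of the 10 and peak 5 the lowest of the 4 within the gene, just above the list's median of 128. Centres of peaks 5 to 8 were 4.66, 2.35 and 2.76 kb apart. The remainder of the gene, from the end of peak 8 to the gene end 22.03 kb beyond the centre of that peak, held no listed peak. Upstream and gene body peaks had similar middle scores, with medians of 734 and 725 over 4 peaks each, but the gene body peaks ranged more widely (137.01 to 1182.39 against 468.29 to 876.63).

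Downstream of the gene the list held 1 high and 1 low peak. Peak 9, from 139086466 to 139086790, scored 50.82, close to the lowest score in the list (50), and at 325 bp was the narrowest of the 10. Peak 10, from 139088400 to 139089325, scored 723.47 and was 926 bp wide. Its centre lay 26.18 kb past the gene end and 2.23 kb beyond that of peak 9. Between peaks 8 and 9 there were 45.4 kb without a listed peak, and whether the downstream peaks act on CXXC5, on PSD2 or on neither is not something positions can show.

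Stretches without a listed peak bounded the region on both sides. Over chromosomes 1 to 22 and X the median edge gap between neighbouring peaks was 53589 bp, and both stretches were longer. The last peak before the window, from 138872211 to 138872708, scored 87.43 and lay 27.5 kb outside it, 143.9 kb from peak 1. The first one after it, from 139267755 to 139268139, scored 91.70 and lay 67.9 kb outside, 178.4 kb from peak 10. The next after that scored 87.53. These outside peaks were below the list's median, as was peak 9 among the members. The third peak after the window scored 127.37, just below that median. Farther before the window, peaks 415.7 and 416.5 kb outside it scored 220.61 and 342.27, above the median.

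ERα peaks at CXXC5 scored high within the list, and 0 of the 10 reached a score of 3100. Of the 10, 9 reached the list's median score, as 50% of all 12688 peaks do by construction, and 8 were among the highest-scoring 25%. The value 3100 is shared by 235 peaks and is not the highest in the list, which is 3230.05, so peaks at 3100 cannot be ranked among themselves. A score of 3100 or more was listed for 2.12% of all peaks (269), and on chromosome 5 for 14 of 661. The median score of the 10 was 696, against 128 for the whole list and 132 for chromosome 5. The highest, peak 7, ranked 1148 in the list and 57 on chromosome 5. All of these scores come from the library that chose the window, so the counts describe the members and support nothing further.

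**Figure D2:**
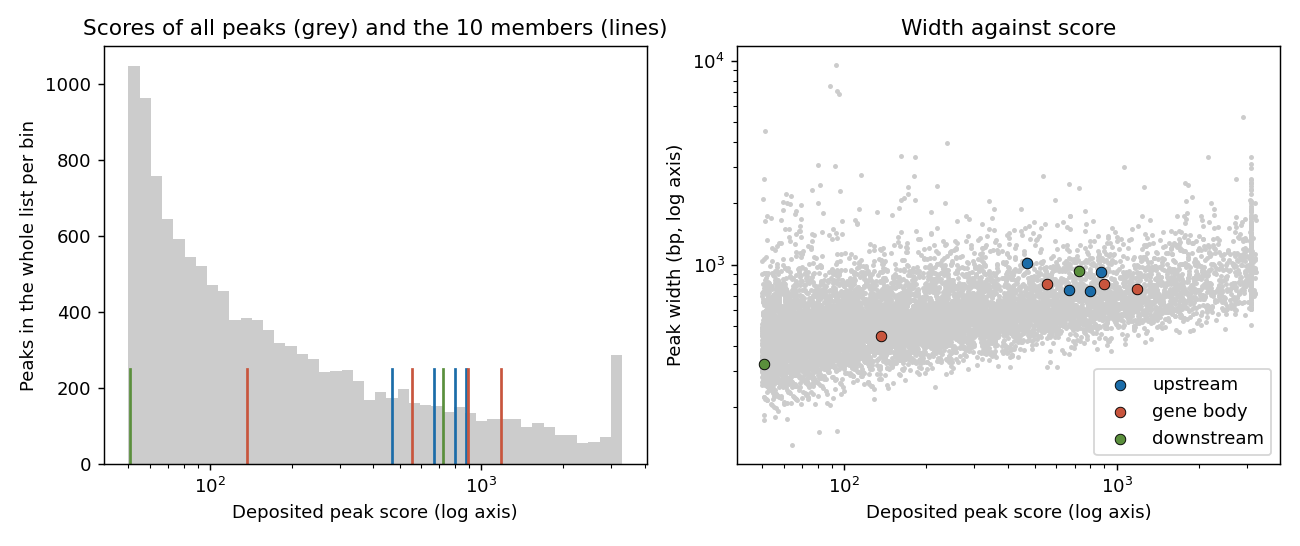
The left panel gives the number of peaks of the whole list per score bin (grey, log score axis) with a coloured line for each of the 10 peaks near CXXC5. The right panel plots peak width in bp against score for all peaks (grey) and the 10 (coloured by position, both axes log), 8 of which lie between 468.29 and 1182.39 in score.

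Most of the peaks were also somewhat wide for their scores. Their median width was 782.5 bp against 505 bp in the whole list and 688 bp in its highest-scoring 25%. Since width rises with score in this list, each was set beside the peaks within 500 ranks of its own score. Of the 10, 8 were wider than the median of those peaks. By construction, about as many peaks of the list lie above such a median as below it. Peak 2 was 1.69 times as wide as that median (601 bp) and wider than 94.6% of the peaks of like score. Peak 10 was 1.44 times as wide and peak 3 was 1.35 times as wide, while peaks 5 and 9 were narrower, at 0.896 and 0.842 times. Peak 7, the highest in score, was 763 bp wide, 1.08 times the median of its like and wider than 62.7% of them.

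Joined by edges no more than 10 kb apart, the 10 peaks fell into 2 regions. The first held peaks 1 to 8 and ran from 139016612 to 139041056, a length of 24.4 kb of which 25.6% was covered by peaks. The second held peaks 9 and 10 in 2.86 kb. With joining at 5 kb, a distance tried after the values were seen, the first divided at the CXXC5 start into 4 upstream peaks over 7.74 kb and 4 gene body peaks over 10.4 kb. Of the 10 peaks, 10 had another centre within 10 kb, as 41.4% of all peaks on chromosomes 1 to 22 and X did.

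Clusters of 8 or more peaks joined in this way were few. There were 28 among 9292 joined regions, and that at CXXC5 was the 1 on chromosome 5. Compared with the others, its scores were even. Its median score of 734 ranked 2 of 28, behind a cluster of 8 on chromosome 22 from 29200639 to 29222757 with a median of 877. Its lowest score, 137.01, also ranked 2 of 28, where the middle value of the lowest scores was 56.4. Its highest score, 1182.39, ranked 26 of 28, where the middle value was 3100, the score that many peaks share.

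In the CXXC5 cluster 7 of 8 peaks (87.5%) were in the highest-scoring 25% of the list, the greatest share among the 28 clusters, whose middle value was 34.1%. The next was a cluster on chromosome 2 with 7 of 11 peaks (63.6%). Put as ranks, the 7 CXXC5 peaks each scored above 79.5 to 91.0% of the list, and peak 5 above 52.0%. From its lowest to its highest peak the cluster spanned 38.9 percentage points of the list. That was the second narrowest span of the 28, whose middle value was 83.7. Lowest scores, highest scores and spans depend on the number of peaks, and 8 is the fewest in this set. Among the 10 clusters of exactly 8, the CXXC5 cluster had the narrowest span, the next being 70.3. Its lowest score was the highest of these 10, the next being 68.83. These ranks describe a cluster picked with its scores known and were not tested.

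**Figure D3:**
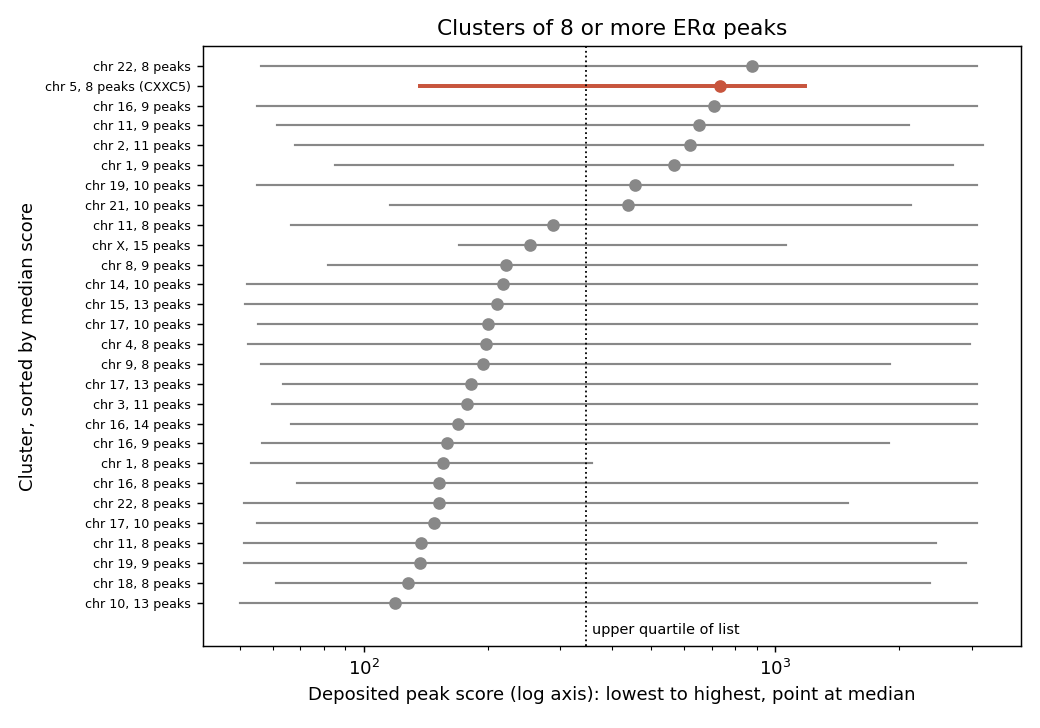
Each line runs from the lowest to the highest deposited score (log axis) in a cluster of 8 or more ERα peaks, with a point at the median, for the 28 clusters sorted by median. The CXXC5 cluster (red) has the second highest median, while its highest score of 1182.39 is below that of most others.

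In spacing and density the cluster lay near the middle of the 28. It held 3.27 peaks per 10 kb (rank 12) and peaks covered 25.6% of it (rank 11). Centre-to-centre distances ran from 0.90 to 6.91 kb, with a coefficient of variation of 66.8% (rank 17), near the middle value of 67.7%. Its distance of 45.4 kb to the closest peak outside it ranked 6, where the middle value was 20.3 kb.

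The 300 kb around CXXC5 had many peaks for its length, as the choice of window implies. The 10 peaks amount to 33.3 per Mb, against 3.65 per Mb over chromosome 5 and 4.17 per Mb over chromosomes 1 to 22 and X. Among 10134 windows of 300 kb on these chromosomes, 136 (1.34%) held as many or more, and 5457 held 0. On chromosome 5 there were 6 such windows of 604, the fullest being that from 172800001 to 173100000 with 16. The windows next to that of CXXC5 held 1 and 3 peaks.

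**Figure D4:**
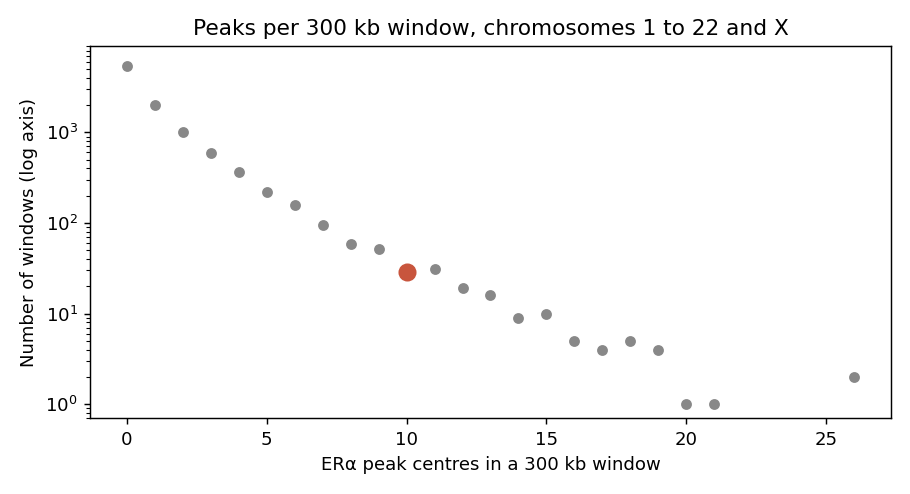
Number of 300 kb windows on chromosomes 1 to 22 and X (vertical log axis) that hold a given number of ERα peak centres (horizontal axis), with the point for 10 peaks, the number at CXXC5, in red. Counts fall steeply from the 5457 windows with 0 peaks to the 2 fullest windows with 26 each.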

How the data were processed

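The deposited file is 1 list of ERα peaks over input in T47D cells, and its score is the authors' own value per peak from the caller, on a scale not given in the sources used here. Peak names carry the MACS prefix, per the file, and the submitters' processing notes name CASAVA 1.8, Bowtie 0.12.9, HOMER and hg19 with no role or order. The score was used only to rank or filter peaks within the list. Starts in the file count from 0, and 1 was added for printing. The CXXC5 interval is that of the rule that defines the window, and promoter means a centre within 1 kb of its start. Every peak of the window is described. The window, the comparisons and the lists were chosen with earlier results of these data known. Merging, counting and classes were tested on simulated data. hg19 chromosome lengths came from GenomeInfoDb 1.38.1. Without hg19 sequence or annotation, the planned motif search in peaks and the look-up of other CXXC genes were not run, and the promoter search was added after the peak list had been seen. Alternatives were score limits, merging distances, position classes and shifted windows. Counts used pandas 2.3.3 and NumPy 2.4.6 under Python 3.11.15, and figures matplotlib 3.10.9.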

Additional observations from a re-analysis of the deposited data

How the results depend on the processing

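The count of 10 peaks went to 2 with merging within 10 kb, to 3 within 5 kb and to 1 within 50 kb (the last 2 distances were chosen after seeing the data), and stayed between 8 and 10 under the other 4 settings. The 4 upstream peaks became 2 with merging within 500 bp. With a promoter of 5 kb on each side, the 0 promoter peaks became 2 (peaks 4 and 5), and above the list's median score 1 of the 2 downstream peaks was left. The median score of 696 was 761 after merging within 500 bp and 734 without the downstream peaks, and the highest score kept its value in both. The share of windows with as many peaks, 1.34%, was 0.484% above the median score (9 peaks). It was 1.84% and 7.22% for the 2 windows shifted by 150 kb, which hold 9 peaks (8 members and 1 peak before them) and 5 peaks (2 members and 3 after them). No paired analysis was possible because neither library has a replicate. Motif settings for the peaks were not run. One ChIP library and an unknown depth leave each score without an error.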
